A study of Mus musculus with 6 samples.

Results

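Retinoic acid, made from vitamin A, is a signal that keratinocytes and dermal cells make, carry and destroy with a small set of enzymes and binding proteins. The described genes are 9 of these, chosen by name: Rdh10, Sdr16c5, Sdr16c6, Dhrs3, Aldh1a1, Aldh1a2, Aldh1a3, Crabp2 and Cyp26b1. They are 9 of the 55401 gene identifiers in the deposited table, and all 9 passed the filter that left 19227 genes for testing. Retinol dehydrogenases turn retinol into retinaldehyde, Dhrs3 turns retinaldehyde back into retinol, and retinaldehyde dehydrogenases of the Aldh1a family make retinoic acid in a step that is not reversed. Crabp2 hands retinoic acid to its nuclear receptors, which pair with retinoid X receptors on DNA, and Cyp26 enzymes break it down. In skin the balance of these steps is known to influence keratinocyte differentiation and hair follicle growth.

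Back skin was taken from mouse embryos at E15.5: 3 Prmt5 cKO embryos, conditional mutants for the arginine methyltransferase gene Prmt5, with its loss placed in the epidermis by the title of the study, and 3 control embryos. Each library held epidermis and dermis of 1 embryo, and no treatment is named for either group. The deposited tables carry the name CRECT, that of a Cre line active in surface ectoderm; the labels give neither the Cre nor the alleles of the control embryos. Summed counts were 45371876 to 58309148 in Prmt5 cKO libraries and 35667634 to 66122667 in control libraries.

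Prmt5 (chromosome 14, 54507187 to 54517525, minus strand, GRCm38) had 1271, 1817 and 1258 counts in Prmt5 cKO libraries 1 to 3 and 3094, 2656 and 2384 counts in control libraries 1 to 3. In CPM (counts scaled to TMM-adjusted library size) it averaged 28.2 ± 2.17 in Prmt5 cKO and 59.2 ± 16.6 in control skin (SD, n = 3 each). Its log2 fold change was -1.07 ± 0.19 (SE, adjusted p of 0.00292 in the quasi-likelihood fit of edgeR). With pan-epithelial scaling, described below, it was -0.06 (adjusted p of 0.796 by edgeR). That scaling moves the median log2 fold change of all genes tested to 1.01, so Prmt5 stayed below the median gene on either scale. An exact two-sided permutation test gave p = 0.1, the smallest that 3 against 3 allows. Y-linked counts marked Prmt5 cKO replicate 1 and control replicates 2 and 3 as male, so sex was not balanced between the groups. Cell type markers moved apart between the groups. The 15 markers shared by epithelial cells summed to 781.8 to 801.9 CPM in Prmt5 cKO and 1521 to 1691 CPM in control skin, with 12 lower and 1 higher by edgeR. The 10 suprabasal keratinocyte markers, all lower, summed to 356.2 to 440.5 CPM in Prmt5 cKO and 14550 to 20230 CPM in control skin. The 8 basal keratinocyte markers differed less, at 2387 to 2750 CPM in Prmt5 cKO and 5193 to 5617 CPM in control skin. Of these 6 were lower and 2 did not pass by edgeR. The 10 dermal fibroblast markers, all higher, summed to 56620 to 75270 CPM in Prmt5 cKO and 37130 to 46720 CPM in control skin, and the 10 skeletal muscle markers, also all higher, to 6310 to 6384 CPM in Prmt5 cKO and 2642 to 3735 CPM in control skin. None of these markers was at 0 in every library. Fewer cells of a type and less RNA per cell cannot be told apart in such bulk samples, and the part of these shifts in the values below was not tested.

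The members fell into 3 kinds in Prmt5 cKO skin. Sdr16c5 and Sdr16c6 were under 5% of their control level, Dhrs3, Crabp2 and Cyp26b1 were lower in all 3 libraries than in any control library, and Rdh10 and the Aldh1a genes overlapped between the groups. Because the genes were proposed with this comparison known, their differences are given as a description with no test. In the edgeR fit 5 of the 9 lay past the threshold of 0.05 on the adjusted p, all lower, where 19.6% of all genes tested were lower and 35.9% changed in either direction by the same rule. No member was higher by edgeR, against 16.3% of all genes; 2 had an unadjusted p under 0.05, and DESeq2 and limma-voom each placed 1, Aldh1a3, past the threshold. The values of the 2 groups did not overlap for 5 members that were lower and 0 that were higher, and over all genes this held for 26.6% and 23.3%, or 49.9% in either direction. Nothing is read from these counts, since the comparison was known when the genes were chosen. The median log2 fold change was -0.88 for the members and -0.00752 for all genes tested.

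**Figure D1:**
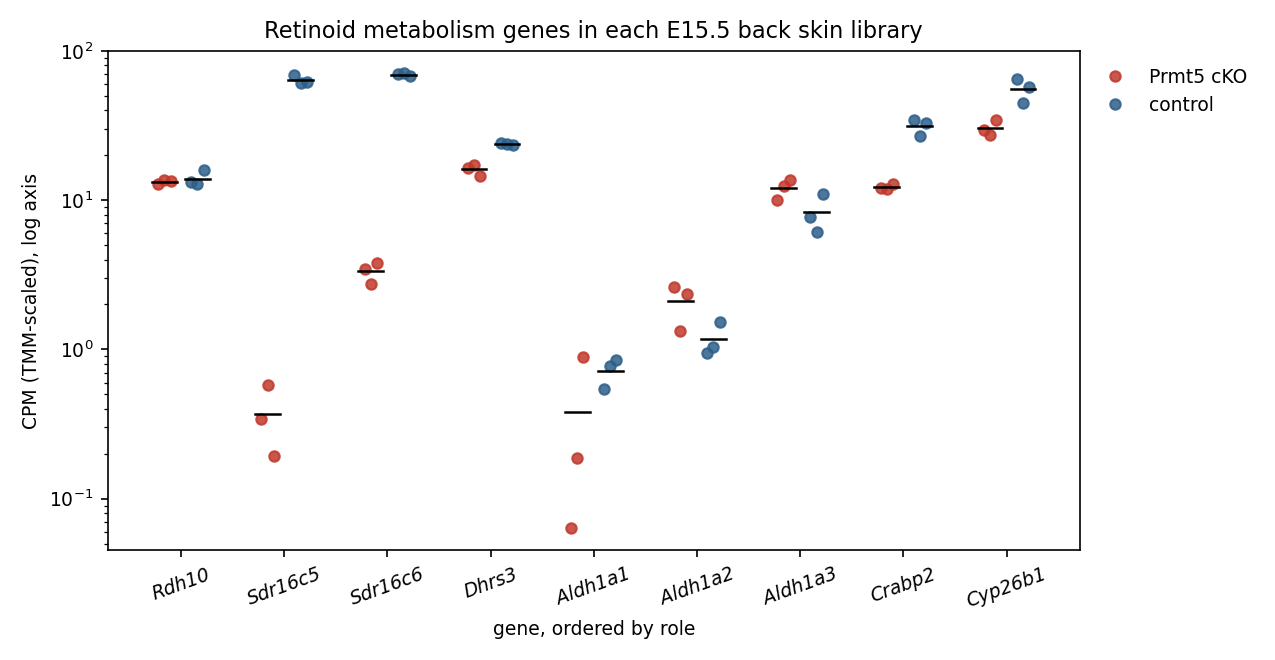
Points are the CPM of each library on a log axis for each member, Prmt5 cKO in red left of control in blue, with a black line at the mean of 3 libraries. Sdr16c5 and Sdr16c6 lie between 0.192 and 3.82 CPM in Prmt5 cKO and between 61.2 and 70.5 CPM in control libraries, while Rdh10 lies between 12.7 and 15.9 CPM in all 6.

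Promoter windows were at hand for 5 of the 9 members, and those of the 3 lower genes among them are shown, since these genes are the ones whose groups did not overlap. They are RefSeq windows on GRCm38.p6, 250 bases before to 50 bases after a transcription start, 5′ to 3′ on the gene's strand. Sdr16c6 is at chr4:4077465-4077764 on the minus strand, Cyp26b1 at chr6:84593761-84594060 on the minus strand, and Dhrs3, which has 3 windows, is shown for the most upstream one at chr4:144892577-144892876 on the plus strand. Capitals mark TATAAA, the only one of the searched motifs that was present.
Sdr16c6: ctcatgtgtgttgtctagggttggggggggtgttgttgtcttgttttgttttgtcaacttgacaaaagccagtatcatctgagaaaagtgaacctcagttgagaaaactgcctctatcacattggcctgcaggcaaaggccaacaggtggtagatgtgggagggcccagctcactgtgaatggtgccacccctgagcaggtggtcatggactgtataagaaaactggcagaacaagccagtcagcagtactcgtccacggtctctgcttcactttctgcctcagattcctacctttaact
Cyp26b1: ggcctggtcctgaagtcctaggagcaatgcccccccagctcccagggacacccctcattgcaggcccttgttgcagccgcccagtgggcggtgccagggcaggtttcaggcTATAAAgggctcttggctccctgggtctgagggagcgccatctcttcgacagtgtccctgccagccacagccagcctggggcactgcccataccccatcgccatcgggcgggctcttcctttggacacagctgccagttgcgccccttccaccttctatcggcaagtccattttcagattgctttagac
Dhrs3: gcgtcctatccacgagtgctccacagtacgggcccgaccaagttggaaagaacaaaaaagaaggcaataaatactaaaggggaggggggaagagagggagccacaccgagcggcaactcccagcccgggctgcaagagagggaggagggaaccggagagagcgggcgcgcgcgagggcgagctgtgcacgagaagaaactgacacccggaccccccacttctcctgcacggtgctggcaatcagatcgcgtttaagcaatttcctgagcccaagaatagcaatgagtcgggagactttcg
The TATAAA of the Cyp26b1 window begins 139 bases before the RefSeq start site of that window. In GENCODE the gene begins at 84593908 on the minus strand, which is inside the window and nearer to the TATAAA. Of the 32851 promoter windows 13.6% hold TATAAA on either strand. The half-sites of retinoic acid receptors, AGGTCA and AGTTCA, were searched on both strands and were in none of the windows of the 5 members. Of all windows 16.3% and 14.0% hold them. The members have few windows, and those of Dhrs3 overlap each other, so no lack of half-sites can be read from this. Spaced direct repeats of these half-sites contain them, so they could not be present either. The Grainyhead-like motif was also searched and not present in those windows, and only 0.146% of all windows hold it. These letters were looked for in 300 bases only, and retinoic acid response elements can lie far from a start site.

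Sdr16c5 encodes an epidermal retinol dehydrogenase of the short-chain family, and Sdr16c6 its neighbouring paralog, which also oxidises retinol in mouse skin. Sdr16c5 (ENSMUSG00000028236.3, chromosome 4, 3995936 to 4019663) and Sdr16c6 (ENSMUSG00000071019.11, chromosome 4, 4055929 to 4077522) lie on the minus strand with 36265 bases and no other protein-coding gene between them. Sdr16c5 had 16, 34 and 9 counts in Prmt5 cKO libraries 1 to 3, against 3038, 4054 and 2181 counts in control libraries 1 to 3. Its mean was 0.369 ± 0.193 CPM in Prmt5 cKO and 63.9 ± 3.97 CPM in control skin (SD, n = 3 each), a level of 0.578% of control and a log2 fold change of -7.38 ± 0.23 (SE). Every Prmt5 cKO library was far below every control library. Sdr16c6 had 162, 161 and 179 counts in Prmt5 cKO libraries 1 to 3, against 3093, 4670 and 2376 counts in control libraries 1 to 3. It averaged 3.33 ± 0.559 CPM in Prmt5 cKO and 69.3 ± 1.48 CPM in control skin (SD, n = 3 each), 4.81% of control, with a log2 fold change of -4.38 ± 0.12 (SE). Log2 fold changes under -4 were found for 1.12% of all genes tested.

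The pair stood in a different proportion in the 2 groups. Per length (CPM per kb of merged exons), Sdr16c5 was 12.2%, 26.0% and 6.20% of Sdr16c6 in Prmt5 cKO libraries 1 to 3 and 121%, 107% and 113% in control libraries 1 to 3. In control skin the paralogs were thus at like levels, with Sdr16c5 above in every library, and in Prmt5 cKO skin Sdr16c5 was below in every library. No 31-base stretch of either gene's transcripts is found in transcripts of another gene, so reads are not split between them by shared sequence. The tested genes next to the pair, named for their position and not for their values, were Gm11808, with a log2 fold change of -0.29 ± 0.07 (SE; adjusted p of 0.0138 by edgeR), and Penk, with -0.02 ± 0.13 (SE; adjusted p of 0.938 by edgeR). With each library left out in turn the Sdr16c5 log2 fold change ranged from -7.89 to -7.08 and that of Sdr16c6 from -4.49 to -4.25.

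Rdh10 (ENSMUSG00000025921.7, chromosome 1, 16105774 to 16133734, plus strand) encodes the retinol dehydrogenase that supplies most retinaldehyde in the mouse embryo. It measured 12.9, 13.7 and 13.3 CPM in Prmt5 cKO libraries 1 to 3, against 13.2, 12.7 and 15.9 CPM in control libraries 1 to 3. The groups overlapped, and the log2 fold change was -0.06 ± 0.11 (SE). Rdh10 therefore made up a larger part of the summed per-length level of the 3 retinol-oxidising members: 62.1% ± 2.57 in Prmt5 cKO and 4.2% ± 0.597 in control skin (SD, n = 3 each). That sum was 5.16 ± 0.124 CPM per kb in Prmt5 cKO and 80.0 ± 2.55 CPM per kb in control skin (SD, n = 3 each). RNA levels of different enzymes do not give their activities.

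Dhrs3 (ENSMUSG00000066026.14, chromosome 4, 144892827 to 144928209, plus strand) encodes a retinaldehyde reductase that works together with Rdh10 and limits retinoic acid formation. It had 16.4, 17.3 and 14.5 CPM in Prmt5 cKO libraries 1 to 3, against 24.0, 23.6 and 23.4 CPM in control libraries 1 to 3. The control libraries differed little from each other, with a coefficient of variation of 1.24%, and all lay above the Prmt5 cKO libraries. The log2 fold change was -0.56 ± 0.09 (SE). Rdh10 stood at 0.585 ± 0.0517 times Dhrs3 per length in Prmt5 cKO and at 0.415 ± 0.056 times in control skin (SD, n = 3 each), with libraries at 0.553 to 0.645 in Prmt5 cKO and 0.379 to 0.479 in control skin, so these ratios did not overlap.

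**Figure D2:**
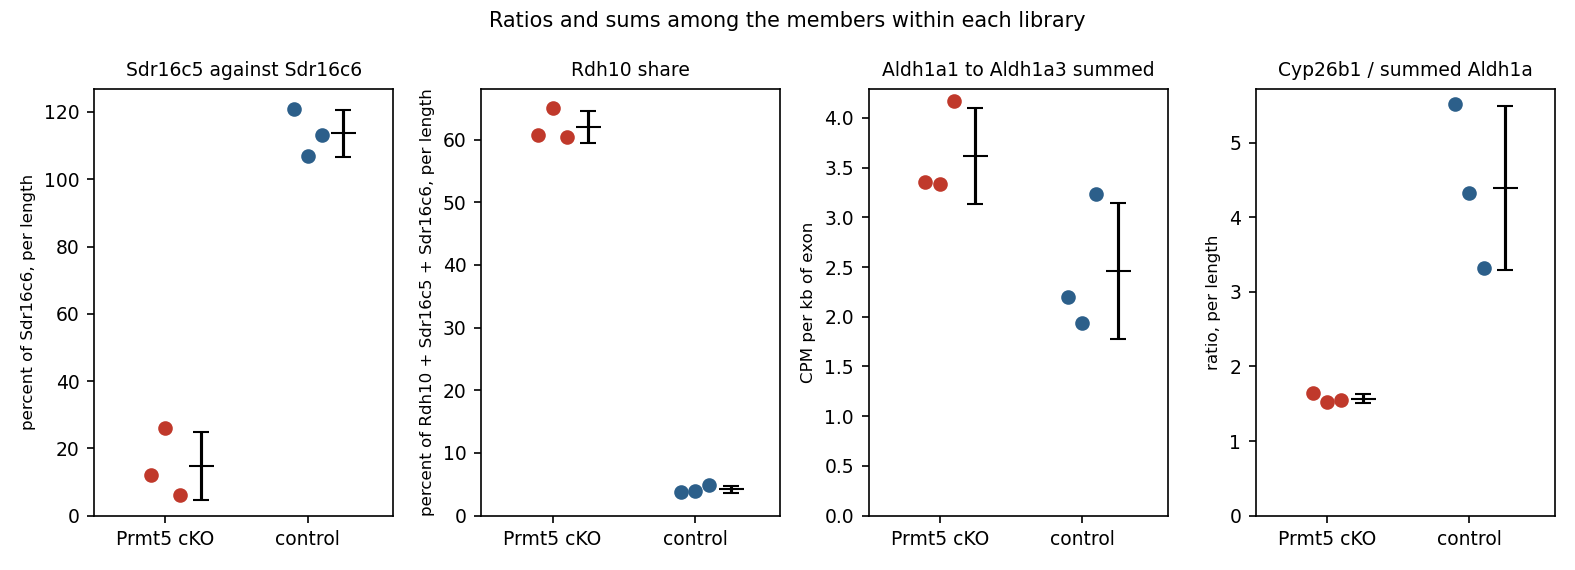
Points are libraries, Prmt5 cKO left of control, with mean ± SD (n = 3) in black: Sdr16c5 as a percent of Sdr16c6, the share of Rdh10 among the 3 retinol-oxidising members, the summed level of Aldh1a1 to Aldh1a3 in CPM per kb of exon, and the ratio of Cyp26b1 to that sum, all per length. Rdh10 holds 60.4% to 65.0% in Prmt5 cKO and 3.82% to 4.89% in control libraries, and the Cyp26b1 ratio is 1.52 to 1.64 in Prmt5 cKO and 3.32 to 5.52 in control libraries.

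The Aldh1a genes encode the enzymes that make retinoic acid from retinaldehyde. Aldh1a3 (ENSMUSG00000015134.15, chromosome 7, 66390890 to 66427517, minus strand) was the most abundant of them per length in every library. It had 10.1, 12.5 and 13.6 CPM in Prmt5 cKO libraries 1 to 3, against 7.73, 6.10 and 10.99 CPM in control libraries 1 to 3. The groups overlapped through control replicate 3 and Prmt5 cKO replicate 1, and the log2 fold change was 0.55 ± 0.21 (SE). Aldh1a2 (ENSMUSG00000013584.5, chromosome 9, 71215789 to 71296243, plus strand), the main enzyme of embryonic mesoderm, had 2.60, 1.34 and 2.35 CPM in Prmt5 cKO libraries 1 to 3, against 0.947, 1.04 and 1.54 CPM in control libraries 1 to 3. Prmt5 cKO replicate 2 lay below control replicate 3, so these groups also overlapped, with a log2 fold change of 0.84 ± 0.32 (SE). The value for Aldh1a3 was 0.38 to 0.81 and that for Aldh1a2 0.65 to 1.08 when libraries were left out in turn, and the groups of both no longer overlapped without control replicate 3. Nor did those of Aldh1a3 without Prmt5 cKO replicate 1, or those of Aldh1a2 without Prmt5 cKO replicate 2.

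Aldh1a1 (ENSMUSG00000053279.8, chromosome 19, 20492715 to 20643465, plus strand) was the least abundant member in every control library. Its counts were 3, 11 and 42 in Prmt5 cKO libraries 1 to 3 and 24, 51 and 30 in control libraries 1 to 3. Among the Prmt5 cKO libraries, replicate 3 alone was as high as the controls, and in CPM above them, at 0.896 against 0.541 to 0.854, while the other two Prmt5 cKO libraries lay below them. The log2 fold change was -0.93 ± 0.76 (SE) and was -2.47 without Prmt5 cKO replicate 3, so no direction is given. Of the 31-base stretches in Aldh1a1 transcripts 5.70% also occur in Aldh1a7, a near copy on the same chromosome, and 13.8% of those in Aldh1a7 occur in Aldh1a1. Aldh1a7 had 68, 191 and 124 counts in Prmt5 cKO libraries 1 to 3 and 2585, 2573 and 1769 counts in control libraries 1 to 3. These were many times those of Aldh1a1 except in Prmt5 cKO replicate 3, with 124 against 42 counts. Reads from the shared stretches of Aldh1a7 could be as many as all Aldh1a1 counts in every library but that one. They could be a part of the Aldh1a1 counts there, so the Aldh1a1 level is uncertain. Summed per length, the 3 Aldh1a members were at 3.35, 3.33 and 4.17 CPM per kb in Prmt5 cKO libraries 1 to 3 and 2.20, 1.94 and 3.23 CPM per kb in control libraries 1 to 3. The lowest Prmt5 cKO library was just above the highest control library. Aldh1a3 supplied 72.4% ± 8.06 of this sum in Prmt5 cKO and 72.6% ± 4.02 in control skin (SD, n = 3 each).

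Crabp2 (ENSMUSG00000004885.5, chromosome 3, 87948666 to 87953376, plus strand) encodes the binding protein that carries retinoic acid into the nucleus. It had 11.96, 11.9 and 12.9 CPM in Prmt5 cKO libraries 1 to 3, against 34.3, 26.8 and 33.1 CPM in control libraries 1 to 3. All Prmt5 cKO libraries were below all control libraries, the level was 39.1% of control, and the log2 fold change was -1.35 ± 0.11 (SE). Cyp26b1 (ENSMUSG00000063415.12, chromosome 6, 84571414 to 84593908, minus strand) encodes the cytochrome P450 that clears retinoic acid in embryonic skin. It had 29.3, 27.1 and 34.6 CPM in Prmt5 cKO libraries 1 to 3, against 65.0, 44.9 and 57.5 CPM in control libraries 1 to 3. These groups did not overlap either. Control replicate 2 was the lowest control for Cyp26b1 and Crabp2, as it was for Rdh10, Aldh1a3, Sdr16c5 and Prmt5. The log2 fold change of Cyp26b1 was -0.88 ± 0.14 (SE), with a level of 54.4% of control. Per length, Cyp26b1 stood at 1.57 ± 0.0605 times the summed Aldh1a members in Prmt5 cKO and at 4.39 ± 1.10 times in control skin (SD, n = 3 each).

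The order of the members' levels per length differed between the groups. In Prmt5 cKO skin Crabp2 came first with 9.27 ± 0.426 CPM per kb, followed by Cyp26b1 with 5.67 ± 0.718 and Dhrs3 with 5.50 ± 0.482, which lay within their spread (SD, n = 3). Rdh10 with 3.20 ± 0.0991 and Aldh1a3 with 2.61 ± 0.389 came next, then Sdr16c6 with 1.72 ± 0.289 and Aldh1a2 with 0.925 ± 0.296. Sdr16c5 with 0.236 ± 0.123 and Aldh1a1 with 0.0774 ± 0.091 were the lowest and lay within about their spread. In control skin Sdr16c5 was the highest with 40.8 ± 2.53 CPM per kb, then Sdr16c6 with 35.8 ± 0.767, Crabp2 with 23.7 ± 3.04, Cyp26b1 with 10.4 ± 1.90 and Dhrs3 with 8.09 ± 0.1. Rdh10 with 3.35 ± 0.419, Aldh1a3 with 1.79 ± 0.539, Aldh1a2 with 0.519 ± 0.14 and Aldh1a1 with 0.146 ± 0.0328 followed (SD, n = 3). The 9 members together summed to 28.4 to 30.7 CPM per kb in Prmt5 cKO and 117 to 131 CPM per kb in control libraries.

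The differences were set against the epithelial shift by scaling each library to its summed pan-epithelial markers, which moves the median log2 fold change of all genes to 1.01. On that scale Sdr16c5 and Sdr16c6 were still lower, at -6.37 ± 0.25 and -3.36 ± 0.13 (log2 fold change ± SE), and their groups did not overlap. The suprabasal markers, at 2.36% of control with a median log2 fold change of -4.48 on the TMM scale, differed by about as much as Sdr16c6 (-4.38), and their part in the values of this pair was not tested. Crabp2 was at -0.34 ± 0.13 with overlapping groups. Dhrs3 and Cyp26b1 turned to 0.46 ± 0.10, with groups that did not overlap, and 0.14 ± 0.16, with groups that did, and Rdh10, Aldh1a3 and Aldh1a2 stood at 0.95, 1.56 and 1.85. Dhrs3 and Cyp26b1 were thus lower relative to all RNA and not lower relative to the epithelial markers, and both stayed below the median gene on either scale. Which layer or cell type each count came from was not measured.

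**Figure D3:**
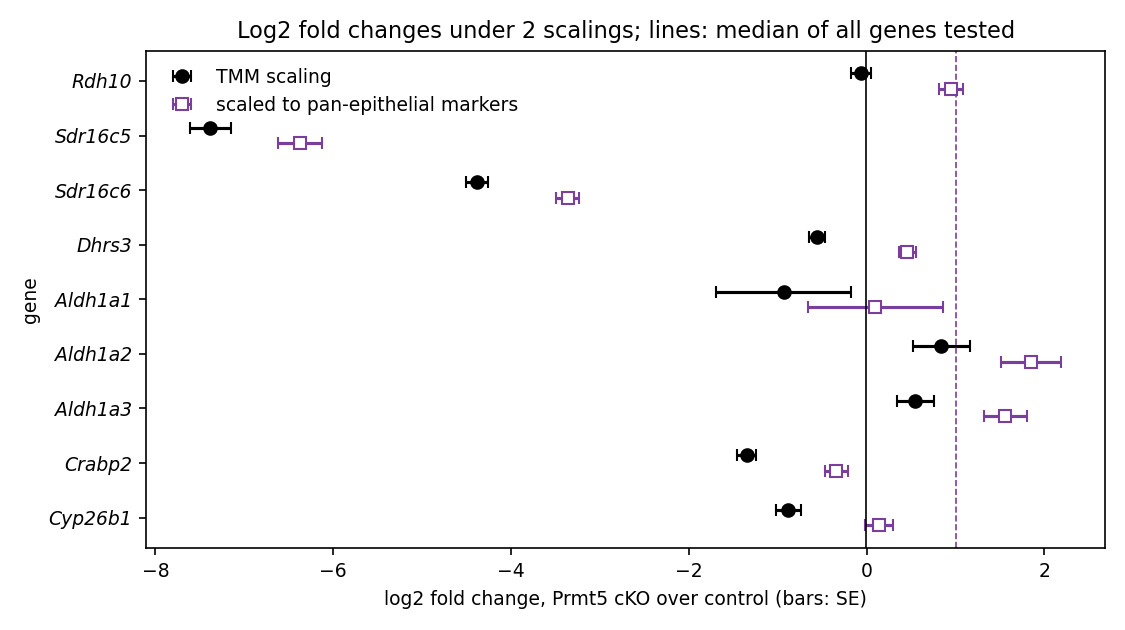
Log2 fold changes of Prmt5 cKO over control with SE bars for each member, with TMM scaling (filled circles) and with libraries scaled to pan-epithelial markers (open squares); the solid and dashed lines are the medians of all genes tested, -0.008 and 1.01. Sdr16c5 and Sdr16c6 lie far left of both medians, and Aldh1a2 and Aldh1a3 each lie right of the median of their own scaling.

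Of the other genes of retinoid handling, transport, receptors and response, 63 were listed in 8 lists and 51 were tested. By edgeR 14 rose, 20 fell and 17 did not pass, that is 27.5% higher and 39.2% lower, against 16.3% and 19.6% of all genes tested. The median log2 fold change was -0.10. The count of those that rose was 9 without control replicate 3, Prmt5 cKO replicate 2 or Prmt5 cKO replicate 3. The lists were chosen with earlier results of these data known.

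Genes that oxidise retinol or reduce retinaldehyde were mostly lower. Of 8 tested genes for retinol oxidation 5 fell, or 62.5%, against 19.6% of all genes tested. They were Rdh1, Rdh9, Rdh16 and Hsd17b6, short-chain dehydrogenases that lie together on chromosome 10, and the alcohol dehydrogenase gene Adh1. Rdh9 (127776386 to 127792697) had 0 counts in every Prmt5 cKO library, against 278, 330 and 184 counts in control libraries 1 to 3, and was at least 92.3-fold lower, using a floor of 3 counts per library. Rdh16 and Hsd17b6, also at 0 in every Prmt5 cKO library, were at least 9.71-fold and 5.87-fold lower on that floor. Rdh1 averaged 0.228 ± 0.125 CPM in Prmt5 cKO and 6.39 ± 1.17 CPM in control skin, and Adh1 24.4 ± 2.88 CPM in Prmt5 cKO and 92.9 ± 32.5 CPM in control skin (SD, n = 3 each). Near copies share sequence in this cluster, as 71.9% of the 31-base stretches of Rdh9 and 27.2% of those of Rdh1 occur in other genes, so the split of counts among them is uncertain. Adh5 rose by 0.14 on the log2 scale, and Rdh5 (-0.10) and Adh7 (-0.18) did not pass. The list median was -3.35 as fitted, and -2.24 when the 3 genes at 0 were placed at that bound. The Adh5 call was lost without any 1 of the 6 libraries (adjusted p of 0.0514 to 0.147 by edgeR).

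Among 5 retinaldehyde reductase genes Rdh12, Dhrs4, Rdh11 and Rdh13 fell and Rdh14 (0.05) did not pass. The share that fell was 80.0%, against 19.6% of all genes tested. Rdh12 averaged 6.94 ± 0.755 CPM in Prmt5 cKO and 80.9 ± 5.26 CPM in control skin (SD, n = 3 each), with a log2 fold change of -3.55 ± 0.09 (SE) and an adjusted p of 1.34e-07 by edgeR. Dhrs4, Rdh11 and Rdh13 fell by 0.60, 0.52 and 0.28 on the log2 scale, and were at 0.42, 0.50 and 0.74 with pan-epithelial scaling. Rdh13 lost its call without control replicate 1, 2 or 3 or Prmt5 cKO replicate 1 or 3 (adjusted p of 0.0533 to 0.12 by edgeR). Aldh1a7, the near copy of Aldh1a1, averaged 2.44 ± 0.906 CPM in Prmt5 cKO and 49.2 ± 9.77 CPM in control skin (SD, n = 3 each; log2 fold change -4.32 ± 0.27, adjusted p of 8.77e-06 by edgeR). Cyp2s1, a cytochrome P450 of epithelia whose human counterpart can metabolise retinoic acid, fell by 3.08 on the log2 scale. The other retinoic acid hydroxylases were hardly seen: Cyp26a1 had at most 3 counts in a library, and Cyp26c1 had 0 in all 6.

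Uptake and binding genes went both ways. Stra6, the membrane receptor for retinol taken from its serum carrier, had 3.01, 2.74 and 2.71 CPM in Prmt5 cKO libraries 1 to 3, against 0.654, 1.42 and 1.196 CPM in control libraries 1 to 3. The groups did not overlap, and the log2 fold change was 1.36 ± 0.28 (SE, adjusted p of 0.0064 by edgeR). Crabp1, the other cellular retinoic acid binding protein, rose by 0.46 to 291.6 ± 20.03 CPM in Prmt5 cKO, against 211.7 ± 6.45 CPM in control skin (SD, n = 3 each). Crabp1 and Crabp2 thus moved in opposite directions on the TMM scale. With pan-epithelial scaling Crabp1 was at 1.48 and Crabp2 at -0.34 with overlapping groups, where the median of all genes was 1.01. The median log2 fold change of the dermal fibroblast markers was 0.47 on the TMM scale. The part of the tissue shifts in these values was not tested. Rbp2, a cellular retinol binding protein, averaged 0.531 ± 0.148 CPM in Prmt5 cKO and 33.98 ± 11.02 CPM in control skin (SD, n = 3 each; log2 fold change -5.99 ± 0.31, adjusted p of 2.7e-06 by edgeR). Fabp5, an epidermal fatty acid binding protein that can also bind retinoic acid, fell by 1.90 on the log2 scale, while Rbp4 (0.37) and Rbp7 (-0.15) did not pass. In the ester and carotenoid list 2 of 9 genes rose, the lipoprotein lipase gene Lpl by 0.84 and the scavenger receptor gene Scarb1 by 0.20. The other 7 did not pass, among them Lrat, which makes retinyl esters (-0.04). The share called in either direction was 22.2%, against 35.9% of all genes tested.

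Receptor genes also differed among themselves. Rxra and Rarg, the receptor pair most abundant in mouse epidermis, fell by 0.96 ± 0.05 and 0.78 ± 0.06 on the log2 scale (SE; adjusted p of 3.47e-06 and 3.38e-05 by edgeR), and were at 0.06 and 0.24 with pan-epithelial scaling. Rxra averaged 163.9 ± 1.80 CPM in Prmt5 cKO and 319.5 ± 15.97 CPM in control skin (SD, n = 3 each). Rxrg rose by 1.26 ± 0.13 and Rarb by 0.92 ± 0.28 (log2 fold change ± SE; adjusted p of 1.26e-04 and 0.0326 by edgeR), while Rara (0.19) and Rxrb (0.04) did not pass, Rara passing without control replicate 1 (adjusted p of 0.0179 by edgeR). Rarb lost its call without control replicate 1 or 3 or Prmt5 cKO replicate 1 or 3 (adjusted p of 0.058 to 0.108 by edgeR). Of the cofactor genes Ncoa1 rose by 0.16, Ncoa3 fell by 0.33, Nrip1 fell by 0.28 and the fatty acid receptor gene Ppard fell by 0.21; Ncor1 (-0.05) and Ncoa2 (-0.11) did not pass. The 3 falls became 0.69, 0.74 and 0.82 with pan-epithelial scaling. Calls were lost for Ncoa1 without control replicate 1 or any Prmt5 cKO library (0.0627 to 0.127) and for Ppard without control replicate 1 or Prmt5 cKO replicate 2 (0.061 to 0.0938; adjusted p by edgeR).

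Genes that retinoic acid is known to raise in one tissue or another showed 7 of 12 higher and 3 lower. These shares were 58.3% and 25.0%, against 16.3% and 19.6% of all genes tested. The median log2 fold change of the list was 0.31, and that of the dermal fibroblast markers was 0.47. The part of the dermal shift in these values was not tested. Stra6, Rarb and the transglutaminase gene Tgm2 were among those that rose, Tgm2 averaging 47.0 ± 2.72 CPM in Prmt5 cKO and 27.7 ± 5.76 CPM in control skin (SD, n = 3 each; adjusted p of 0.00317 by edgeR). The keratin gene Krt13 fell by 3.68 on the log2 scale and Nrip1 fell by 0.28. Krt4 (0.21) and Lrat did not pass, and Krt4 passed without control replicate 2 (0.47, adjusted p of 0.00317 by edgeR). Dhrs3 and Cyp26b1, which retinoic acid is also known to induce, were not in this list because they are members. Both were lower in Prmt5 cKO skin on the TMM scale, and were at 0.46 and 0.14 with pan-epithelial scaling.

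**Figure D4:**
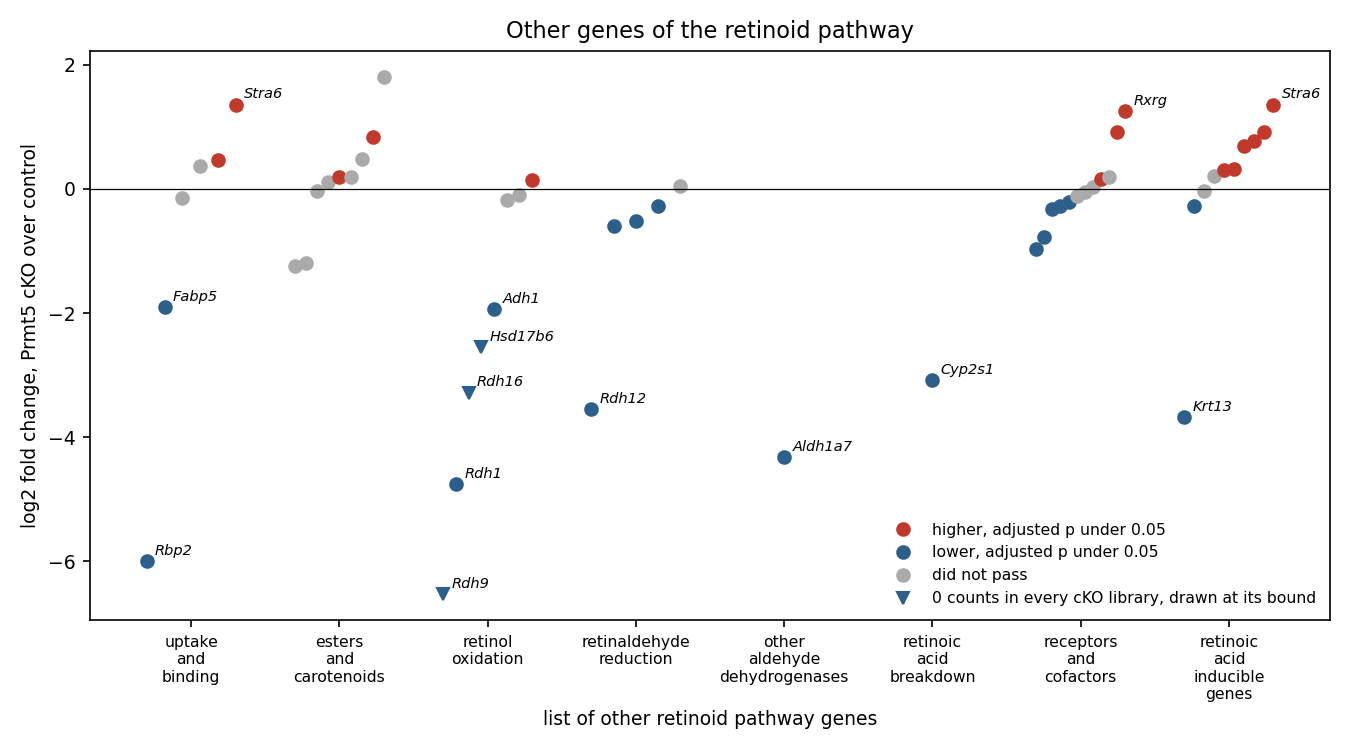
Each point is the log2 fold change of Prmt5 cKO over control for a tested gene, by list and without a few genes not reported here, in red or blue where the adjusted p by edgeR was under 0.05 and in grey where it was not; triangles mark genes with 0 counts in every Prmt5 cKO library, drawn at their bound. The lowest points are Rdh9 and Rbp2, and the highest called points are Stra6 and Rxrg.

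Genes with the most similar pattern were sought for the members with the lowest and the highest fitted fold change, by Pearson's r of log2 CPM over the 6 libraries among genes with a mean log2 CPM of at least 2. For Sdr16c5 they were Cyp2w1 (r = 0.9998), Agpat3 (r = 0.999) and Ndufa4l2 (r = 0.9985), and 1695 of 12815 genes had an r over 0.95. For Aldh1a2 they were Tmem176a (r = 0.994), R74862 (r = 0.9936) and Kitl (r = 0.9929), and 58 of 12816 genes had an r over 0.95. These r values are a description over 2 groups of 3 libraries, and the points share libraries and group. They leave out the size of a change. The log2 fold changes of the genes named with Sdr16c5 (-7.38) were -4.67, -0.81 and -3.14. Those of the genes named with Aldh1a2 (0.84) were 0.14, 0.45 and 0.26.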

How the data were processed

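RNA of 6 libraries was measured with stranded mRNA libraries and paired-end reads, per the labels' protocols. The authors deposited whole-number counts per gene; the tools STAR, StringTie and DESeq2 and the build mm10 are named per the submitters' processing notes. Their versions, the annotation and the counting step were not given in the sources read. The authors also deposited DESeq2 log2 fold changes with p-values, and a Sleuth effect that the authors gave on a natural log scale, judged from its ratio to their log2 fold changes. In every library more genes held a count of 3 than of 2 (970 against 855 in Prmt5 cKO replicate 3), so a count may be less than 1 read, and floors cover counting error only.

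Genes were kept by filterByExpr, scaled by TMM and tested with edgeR 4.0.16 in R 4.3.3 (quasi-likelihood, Benjamini-Hochberg, threshold 0.05). The SE is the log2 fold change over the square root of F. The exact permutation test used SciPy 1.17.1. Members' levels per length divide CPM by merged exon length in GENCODE M21 (GRCm38), which held 98.1% of the versioned identifiers and all members. The step was tested on simulated data, where it recovered 62% of 50 genes changed 1.5-fold, 98% at 2-fold and 100% at 4-fold. Changes were placed in more expressed genes only. Recovery at levels as low as those of Aldh1a1 and Aldh1a2 was thus not measured.

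The members and lists were chosen with earlier results of these data known. Named genes were the members, Prmt5, in each list the called genes with the largest changes (up to 4), the most expressed, and all where a count was 5 or fewer, except a few genes that are not reported here by name. Replicates are separate embryos, and the labels name no litter. Alternatives were RLE, upper-quartile and pan-epithelial scaling, no filter, a filter at 1 CPM, DESeq2 1.42.0, limma-voom (limma 3.58.1), a replicate block, a threshold of 0.01 and leaving out each library; a sex term was chosen after seeing the data.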

Additional observations from a re-analysis of the deposited data

How the results depend on the processing

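Scaling to pan-epithelial markers changed most: it gave 15621 genes higher and 759 lower, 4 members higher and 2 lower with groups that did not overlap, 4 members past the threshold as higher and 3 as lower, and 35 other pathway genes higher and 11 lower, and Prmt5 was then at -0.06 (adjusted p of 0.796 by edgeR, against 3.04e-05 to 0.0158 without single libraries). It also turned the sign of the log2 fold changes of Rdh10 (0.95), Aldh1a1 (0.10), Rbp7 (0.83), Dhrs3 (0.46), Cyp26b1 (0.14), Adh7 (0.83), Dhrs4 (0.42), Lrat (0.98), Ncoa2 (0.91), Ncoa3 (0.69), Ncor1 (0.97), Nrip1 (0.74), Ppard (0.82), Rarg (0.24), Rdh11 (0.50), Rdh13 (0.74), Rdh5 (0.91) and Rxra (0.06). That scaling moves all genes by about 1.01, so these signs are relative to epithelial markers. Upper-quartile scaling gave 4514 higher and 2719 lower genes, 62.4% of calls higher against 45.5%, and placed Aldh1a2 and Aldh1a3 past the threshold, making 2 members higher. It also ended the calls of Rdh13 (adjusted p of 0.132 by edgeR) and Ppard (0.175) and made Rara pass (0.0079), as the 1 CPM filter did (0.04). No filter ended the calls of Rdh13 (0.0557), Adh5 (0.0902) and Ncoa1 (0.0668), and Adh5 was also lost with limma-voom (0.051) and the sex term (0.102). At a threshold of 0.01, 1825 genes and 7 other pathway genes were higher. DESeq2, limma-voom and the replicate block each put Aldh1a3 past the threshold, and the sex term put Aldh1a2 past it, making 1 member higher. No filter, the sex term and the 1 CPM filter gave 11, 10 and 15 other pathway genes higher.

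Leaving out single libraries gave 2460 to 2780 genes higher and 3002 to 3293 lower, 0 to 2 members higher and 5 to 6 lower with groups that did not overlap, 0 to 1 member higher and 5 to 6 lower past the threshold, and 9 to 12 other pathway genes higher and 18 to 19 lower, each with fewer samples than the full comparison. Same-numbered embryos did not deviate together (correlations of -0.3, -0.047 and -0.249 across genes). These are deviations from means of 3 libraries, so they cannot exclude a pairing by number. With the replicate block 2723 genes were higher and 3375 lower, and 12 other pathway genes were higher and 20 lower. The calls of Adh5 (adjusted p of 0.0594 by edgeR) and Ncoa1 (0.0719) were lost with that block. Depth limits Aldh1a1, Sdr16c5 in Prmt5 cKO skin and the genes at 0, whose folds are bounds.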

Other observations

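The authors' deposited table from Sleuth, a second differential expression tool, gave all 9 members the same sign as their DESeq2 table. On the log2 scale, the Sleuth effect in the authors' deposited table was -7.43 for Sdr16c5 and -4.48 for Sdr16c6, beside -7.36 and -4.37 in their DESeq2 table. For Aldh1a1 the authors' deposited table from Sleuth gave -1.44, beside -0.90 by DESeq2, and for Aldh1a2 0.62 beside 0.86. For the other 5 members the Sleuth effect minus the DESeq2 value in the authors' deposited tables was -0.10 to -0.03 on the log2 scale.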
